A study of Mus musculus with 9 samples.

Results

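Cell cycle and DNA replication genes were examined as a group of 37 genes in mouse hippocampus. They were chosen by symbol from a list of proliferation genes, with the condition that a gene averaged at least 10 normalized counts over all 9 libraries. All 37 listed symbols met it, out of 57180 genes in the deposited table and 17036 genes with a mean of at least 10. Of the 37, 12 act in S phase, when DNA is copied, and 25 act mainly from the end of DNA replication through mitosis and cell division. The lowest mean was 63.2 normalized counts, for Gins2, so none lay near the minimum of 10.

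RNA was sequenced from whole hippocampi of C57BL6 mice aged 11 days. The 4 mutant animals (cKO) carried a conditional knockout of Slc38a3, the gene of the glutamine transporter SNAT3, restricted to endothelial cells, and the 5 other animals were wild type (WT). No label names the Cre line that drives the knockout. The cKO group held 3 males (replicates 1, 3 and 4) and 1 female (replicate 2), and the WT group 1 male (replicate 1) and 4 females, so sex entered the model as a term.

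A dividing cell loads the MCM helicase onto its DNA, opens the helix with the help of Cdc45 and the GINS complex, and copies it with polymerases held by the PCNA clamp, while ribonucleotide reductase and thymidylate synthase supply nucleotides. Cyclin-dependent kinase 1 with cyclins A and B then starts mitosis, the Aurora and Polo-like kinases drive the spindle, the checkpoint holds chromosomes until all are attached, and the anaphase-promoting complex with Cdc20 releases them. Replication genes are switched on by E2F factors ahead of S phase, and mitotic genes later by NF-Y at CCAAT boxes and by the MuvB complex at the cell cycle homology region (CHR). In the hippocampus of a young mouse the dentate gyrus still makes granule neurons, and precursors of glia still divide. In RNA from whole tissue, fewer dividing cells and less RNA per dividing cell cannot be told apart.

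Promoters of 3 mitosis genes and 1 S phase gene are shown because they carry CHR or E2F letters, by which mitosis and S phase promoters are known to differ. CCAAT boxes, which are found in both kinds here, are marked as well. Each line holds the 250 bases before the RefSeq start of the gene (build GRCm38.p6, 5′ to 3′ on the gene's strand). Capitals mark CCAAT on either strand (CCAAT or ATTGG), the CHR letters TTTGAA or TTCGAA on either strand, and the E2F letters TTTGGCGC, TTTCGCGC or TTTCCCGC on either strand. Mki67 lies at chr7:135716380-135716629, Top2a at chr11:99024190-99024439, Cdk1 at chr10:69352913-69353162 and Mcm6 at chr1:128359706-128359955, each on the minus strand. In Mcm6, 2 of the E2F matches overlap by 4 bases.
Mki67: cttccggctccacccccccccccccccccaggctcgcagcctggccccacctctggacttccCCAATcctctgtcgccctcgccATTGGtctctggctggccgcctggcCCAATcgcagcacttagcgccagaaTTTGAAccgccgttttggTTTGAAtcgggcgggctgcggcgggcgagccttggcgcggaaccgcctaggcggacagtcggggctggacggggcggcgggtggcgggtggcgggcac
Top2a: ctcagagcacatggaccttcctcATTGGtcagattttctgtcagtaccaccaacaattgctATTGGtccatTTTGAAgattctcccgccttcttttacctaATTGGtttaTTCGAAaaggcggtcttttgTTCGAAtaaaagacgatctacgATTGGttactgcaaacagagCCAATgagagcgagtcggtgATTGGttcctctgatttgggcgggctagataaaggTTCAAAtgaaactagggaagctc
Cdk1: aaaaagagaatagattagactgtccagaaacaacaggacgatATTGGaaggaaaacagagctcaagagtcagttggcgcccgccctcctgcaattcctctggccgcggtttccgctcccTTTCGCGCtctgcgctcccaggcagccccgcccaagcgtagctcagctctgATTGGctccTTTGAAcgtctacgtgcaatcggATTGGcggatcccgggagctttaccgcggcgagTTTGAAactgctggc
Mcm6: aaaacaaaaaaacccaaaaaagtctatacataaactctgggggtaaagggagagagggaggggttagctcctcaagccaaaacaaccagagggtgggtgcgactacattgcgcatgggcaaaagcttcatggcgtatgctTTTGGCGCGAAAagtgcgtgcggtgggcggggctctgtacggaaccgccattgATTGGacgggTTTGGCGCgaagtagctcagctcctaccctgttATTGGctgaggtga

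The Mki67 window holds 3 CCAAT and 2 CHR matches, the Top2a window 6 CCAAT and 4 CHR matches, and the Cdk1 window 3 CCAAT, 2 CHR and 1 E2F match. The Mcm6 window holds 2 CCAAT and 3 E2F matches and 0 CHR matches. A promoter was found for 32 of the 37 genes, with Aurkb, Ccna2, Gins2, Mcm4 and Tpx2 lacking an entry in the table. Over windows of 300 bases, which run on 50 bases past the start, a CHR match stood in 18 of 22 mitosis promoters and 3 of 10 S phase promoters, against 21.7% of 27025 genes with a promoter. E2F letters were found in 1 of 22 mitosis promoters (Cdk1) and 4 of 10 S phase promoters, against 2.12% of all genes. CCAAT stood in 20 of 22 mitosis promoters and 9 of 10 S phase promoters, against 41.1% of all genes. These are matches of letters and say nothing of which factor is bound.

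The knockout was checked first. Slc38a3 (ENSMUSG00000010064) had 379.8, 405, 308 and 310.2 normalized counts in cKO replicates 1 to 4, against 3392, 2033, 3514, 3363 and 1804 in WT replicates 1 to 5. The log2 fold change was -2.99 ± 0.221 (SE, adjusted p = 5.54e-05 in limma), and an exact permutation test over the 126 ways to divide them into 4 and 5 gave a two-sided p of 0.00794, the smallest this design allows. The libraries held 32096409 to 34034530 reads in cKO and 30803135 to 33134405 reads in WT. Markers of hippocampal neurons were present, with a summed level of 42820 to 48435 normalized counts in cKO and 47437 to 51069 in WT, a median log2 fold change of -0.05 and none of the 10 at 0. Levels per kilobase of exon are given as mean ± SD (n = 4 in cKO and 5 in WT). Pcna was the highest of the proliferation genes, at 419.8 ± 25.2 normalized counts per kilobase in cKO and 438 ± 26.7 in WT. Gins2 was the lowest in WT, at 16.0 ± 1.90, and stood at 14.8 ± 2.17 in cKO. In cKO the lowest was Kif23, at 14.5 ± 2.16, with an SD that overlaps that of Gins2. After Pcna, Mcm6, Mcm7, Mcm4 and Rrm2 came next in cKO, at 148 ± 6.99, 142 ± 3.83, 134 ± 5.81 and 116 ± 7.66 normalized counts per kilobase. The SDs of Mcm4 and Rrm2 do not overlap and those of the other neighbours do. In WT the same 4 genes ran from Mcm6 (147 ± 12.5) over Mcm4 (137 ± 6.76) and Mcm7 (131 ± 10.3) to Rrm2 (127 ± 13.8), with SDs that overlap between neighbours (n = 5).

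Genotype did not move any of the 37 genes past the threshold. In limma-trend on log2(normalized count + 1), with Benjamini-Hochberg adjustment over all 17036 genes, 0 of 37 had an adjusted p under 0.05, where 0.346% of all genes did (0.123% higher and 0.223% lower in cKO). The smallest adjusted p among them was 0.256, for Cenpf. edgeR and DESeq2 on the recovered reads also called 0 of 37, where edgeR called 0.335% and DESeq2 1.17% of all genes. Without the sex term limma also called 0 of 37, against 1.27% of all genes. An unadjusted p under 0.05 was reached by 8 of 37, all of them mitosis genes with lower values in cKO (Aurkb, Cenpf, Kif23, Tpx2, Nusap1, Prc1, Mki67 and Top2a), where 11.3% of all genes reached it and 6.40% did so with lower values in cKO. edgeR gave 7 such genes against 11.1% of all genes, and DESeq2 gave 6 against 9.34%. In limma without the sex term 6 of 37, all mitosis genes, had an unadjusted p under 0.05, where 2651 of 17036 genes did.

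S phase and mitosis genes are described apart. Of the 25 mitosis genes, 23 had a log2 fold change (cKO over WT) below 0, with a median of -0.19, and of the 12 S phase genes 7 were below 0, with a median of -0.06. Without the sex term 22 of 25 and 8 of 12 were below 0, since Plk1 and Mcm5 changed sign. Over all genes tested, 51.2% were below 0 and the median was -0.003. The 95% confidence interval lay within a 1.5-fold change either way for 12 of 12 S phase genes and 21 of 25 mitosis genes. That is 33 of 37, where it did so for 13161 of the 17036 genes tested. The interval lay within a 2-fold change for 37 of 37, and for 15617 of the 17036. For 3 genes, Aurkb, Tpx2 and Prc1, every cKO library lay below every WT library, and 6.29% of all genes had groups that do not overlap (3.72% with cKO below).

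**Figure D1:**
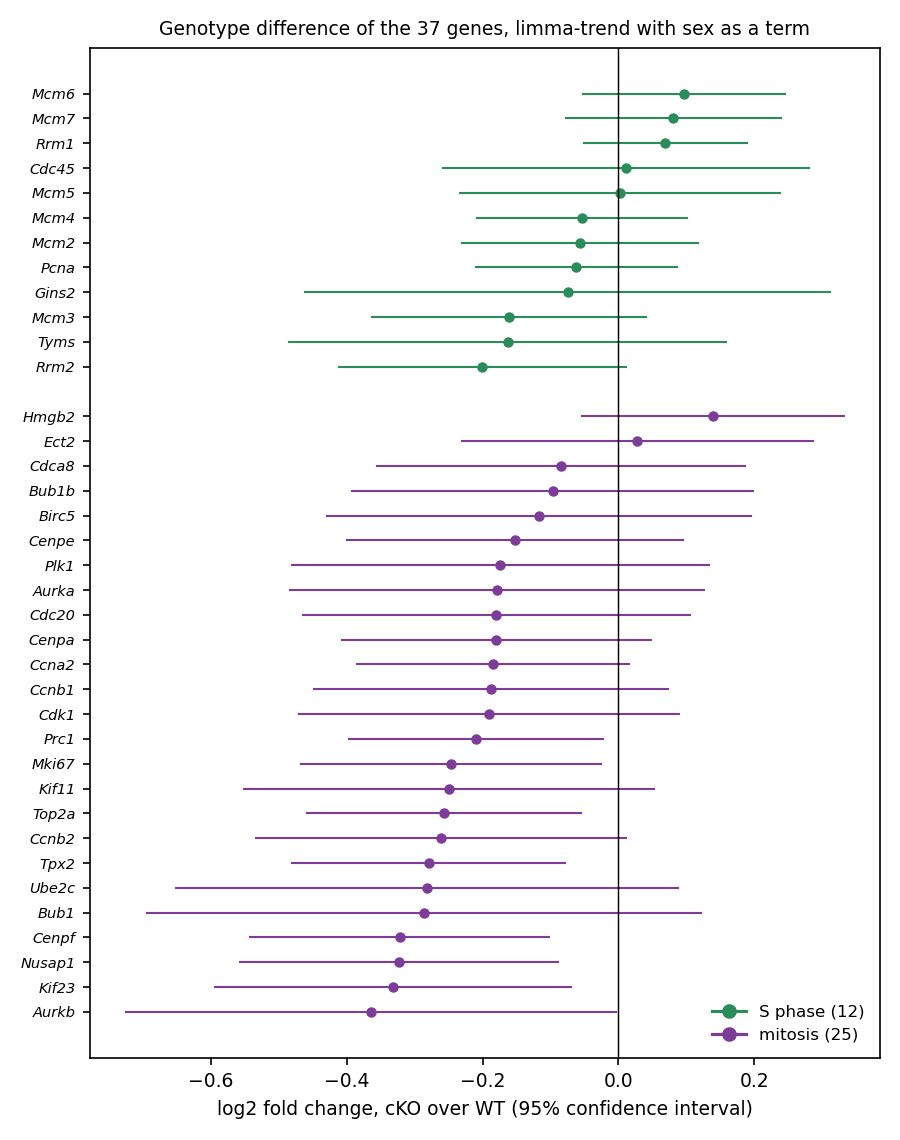
Log2 fold change (cKO over WT, sex as a term in limma-trend) of each of the 37 genes on the horizontal axis, with its 95% confidence interval as a line, S phase and mitosis genes apart. The mitosis genes run between -0.36 (Aurkb) and 0.14 (Hmgb2) and the S phase genes between -0.20 (Rrm2) and 0.10 (Mcm6), and 0 of 37 passed the adjusted threshold.

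Among the S phase genes the MCM helicase subunits came first. Mcm2 (chromosome 6, 88860455 to 88875762 in GRCm39), a subunit of the MCM ring and a common marker of cycling cells, had 319, 322, 316 and 367 normalized counts in cKO replicates 1 to 4, against 351, 325, 336, 338 and 326 in WT replicates 1 to 5. A single cKO library, replicate 4, stood above all WT libraries, and the other 3 stood below them. Its log2 fold change was -0.06 ± 0.081 (SE, adjusted p = 0.827 in limma).

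Mcm3, another ring subunit, had 246, 231, 227 and 272 normalized counts in cKO, against 277, 275, 259, 240.0 and 259 in WT. The groups overlapped, with 2 cKO libraries below the lowest WT library. Its log2 fold change was -0.16 (limma adjusted p = 0.54). Mcm6, the subunit with the highest level per kilobase of the 6, had 666, 736, 686 and 669 normalized counts in cKO, against 620.3, 626, 723, 699 and 752 in WT, so that all cKO libraries lay inside the WT range. Mcm6 had the highest fold change of the S phase genes, at 0.10 on the log2 scale (limma adjusted p = 0.626). The other ring subunits had log2 fold changes of -0.05 (Mcm4), 0.002 (Mcm5) and 0.08 (Mcm7), and Mcm5 stood at -0.01 without the sex term.

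Pcna (chromosome 2, 132091081 to 132095234), the sliding clamp of the replication polymerases, had the highest level per kilobase of the 37 genes. It held 1017, 965, 959 and 1089 normalized counts in cKO, against 1008, 1065, 1083, 1132 and 968 in WT. The groups overlapped over most of their range, with a log2 fold change of -0.06 ± 0.069 (SE, adjusted p = 0.771 in limma). Without cKO replicate 2, which leaves the cKO males against WT replicate 1, the log2 fold change was 0.02. The helicase partners Cdc45 and Gins2 had log2 fold changes of 0.01 and -0.07.

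Of the genes of nucleotide supply, Rrm2, the regulated subunit of ribonucleotide reductase, had 330.1, 316, 296 and 346 normalized counts in cKO, against 399.9, 303, 371, 325 and 363 in WT. A single cKO library lay below all WT libraries. Its log2 fold change of -0.20 ± 0.098 was the lowest of the S phase genes (SE, adjusted p = 0.46 in limma). Rrm1, the large subunit of the same enzyme, stood at 0.07, and Tyms, thymidylate synthase, at -0.16 on that scale.

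The 4 mitotic entry genes had log2 fold changes between -0.26 and -0.18, with a smallest adjusted p of 0.456 in limma. Cdk1 (chromosome 10, 69170975 to 69188768), the kinase that starts mitosis, had 113, 117, 144 and 129 normalized counts in cKO, against 154, 135, 125, 112 and 139 in WT. All 4 cKO libraries lay inside the WT range, and the log2 fold change was -0.19 ± 0.130 (SE, adjusted p = 0.61 in limma). Its partners, the cyclins, stood close to it at log2 fold changes of -0.18 (Ccna2), -0.19 (Ccnb1) and -0.26 (Ccnb2).

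Among the kinases and the chromosomal passenger complex, which corrects wrong attachments of chromosomes, Aurkb had the lowest fold change of all 37 genes. Aurora kinase B, which it encodes, had 59.7, 75.4, 94.8 and 86.8 normalized counts in cKO, against 96.7, 97.6, 108, 97.4 and 106 in WT. Every cKO library was below every WT library, though cKO replicate 3 came within 2 counts of the lowest WT library. The log2 fold change was -0.36 ± 0.168 (SE, adjusted p = 0.438 in limma). Its complex partners Birc5 (survivin) and Cdca8 (borealin) stood at -0.12 and -0.08, Aurka, which acts at spindle poles, at -0.18, and the Polo-like kinase Plk1 at -0.17. Without the sex term Plk1 stood at 0.02.

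The checkpoint kinases Bub1 and Bub1b had log2 fold changes of -0.29 and -0.10. Cdc20, the activator of the anaphase-promoting complex, stood at -0.18, and Ube2c, the ubiquitin-conjugating enzyme of that complex, at -0.28. The smallest adjusted p of the 4 was 0.561 in limma.

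Cenpf, a large protein of the kinetochore, where chromosomes meet the spindle, had the smallest p of the 37 genes. It had 288, 252, 350.2 and 322 normalized counts in cKO, against 360.0, 333, 316, 379 and 362 in WT. cKO replicates 1 and 2 lay below all WT libraries, and replicates 3 and 4 lay among them. The log2 fold change was -0.32 ± 0.102 (SE, adjusted p = 0.256 in limma). Cenpa, the histone variant of the centromere, and Cenpe, a kinetochore motor, stood at -0.18 and -0.15.

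In the spindle and cytokinesis genes, Tpx2, which activates Aurora kinase A at the spindle, had 243, 227, 276 and 276 normalized counts in cKO, against 295, 278, 297, 309 and 311 in WT. The groups did not overlap, but the 2 highest cKO libraries were within 3 counts of the lowest WT library. Its log2 fold change was -0.28 ± 0.093 (SE, adjusted p = 0.28 in limma).

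Nusap1, which bundles spindle microtubules, had 150.15, 124, 173 and 163 normalized counts in cKO, against 187, 168, 179.95, 164 and 160.2 in WT. Its cKO replicates 3 and 4 lay within the WT range, and the log2 fold change was -0.32 ± 0.109 (SE, adjusted p = 0.281 in limma). Prc1, which holds the midzone of the dividing spindle together, had 247, 259.5, 257 and 237 normalized counts in cKO, against 280.2, 305, 322, 318 and 279 in WT. It is named here because its groups did not overlap, which was seen in the data, and it is the gene of the 3 with the widest gap between them. The log2 fold change of Prc1 was -0.21 ± 0.087 (SE, adjusted p = 0.386 in limma). The motors Kif11 and Kif23 stood at -0.25 and -0.33, and Ect2, which sets the cleavage furrow, at 0.03.

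Of the genes of chromosome structure, Mki67 (chromosome 7, 135291512 to 135318090), which encodes the proliferation marker Ki-67 that coats mitotic chromosomes, had 612, 543, 789.5 and 708 normalized counts in cKO, against 762, 598, 719, 752 and 737 in WT. The highest and the lowest of the 9 libraries were both cKO, so the WT range lay inside the cKO range. The log2 fold change was -0.25 ± 0.102 (SE, adjusted p = 0.39 in limma). It was -0.12 without cKO replicate 2, -0.11 without the sex term and -0.36 without WT replicate 1. Without cKO replicates 1 and 2 it was -0.03. Without cKO replicate 2, or replicates 1 and 2, the remaining cKO males are compared with WT replicate 1 alone. Without WT replicate 1, the fold change compares cKO replicate 2 alone with the WT females. The spread of Mki67 between libraries of a genotype was 3.30 times the counting error, the widest ratio of the 37 genes, where the median was 1.20 in mitosis genes and 1.29 in S phase genes.

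Top2a (chromosome 11, 98883768 to 98915015), the topoisomerase that untangles sister chromosomes, had 578, 584, 729 and 694 normalized counts in cKO, against 734, 681, 814, 718 and 797 in WT. cKO replicates 1 and 2 were again below all WT libraries and the other 2 among them. Its log2 fold change was -0.26 ± 0.094 (SE, adjusted p = 0.322 in limma). Hmgb2, a chromatin protein of dividing progenitors, ran the other way, with 345, 338, 326 and 332 normalized counts in cKO, against 294, 326, 349, 280.1 and 311 in WT. It had the highest fold change of the mitosis genes, at 0.14 ± 0.089 (SE, adjusted p = 0.585 in limma), and its groups overlapped.

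**Figure D2:**
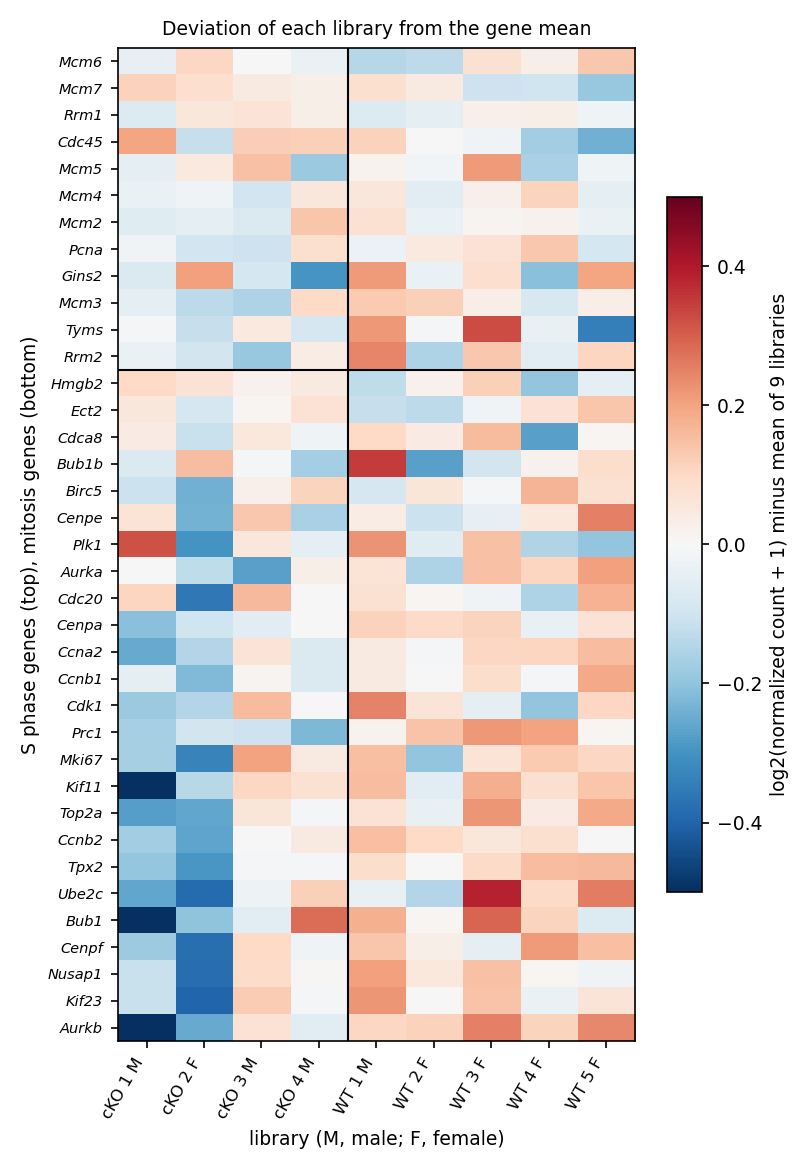
Deviation of each gene from its own mean over the 9 libraries (log2), a row per gene and a column per library, cKO left of WT, with S phase and mitosis genes apart and values beyond the ends of the colour scale drawn in its end colours. The columns of cKO replicates 1 and 2 are below the mean in 19 and 23 of the 25 mitosis genes, and those of cKO replicates 3 and 4 in 8 and 13.

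cKO replicates 1 and 2 had the lowest values of the mitosis genes. Averaged over the 25 mitosis genes, the deviation from each gene's own mean was -0.14, -0.21, 0.04 and -0.002 on the log2 scale in cKO replicates 1 to 4, against 0.10, -0.02, 0.11, 0.03 and 0.10 in WT replicates 1 to 5. The summed mitosis genes came to 4907, 4726, 5683 and 5400 normalized counts in cKO, against 5831, 5312, 5864, 5647 and 5886 in WT. cKO replicates 1 and 2 were the lowest of the 9 libraries in this sum, and cKO replicates 3 and 4 lay inside the WT range. In the S phase genes the mean deviation ran between -0.02 and -0.0005 in cKO and between -0.04 and 0.07 in WT. The lowest library was cKO replicate 1 or 2 for 18 of 25 mitosis genes and 1 of 12 S phase genes, and for 30.7% of all genes tested. Both of them were the 2 lowest libraries for 13 of the 25 mitosis genes and 0 of the 12 S phase genes, and for 6.00% of all genes tested.

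**Figure D3:**
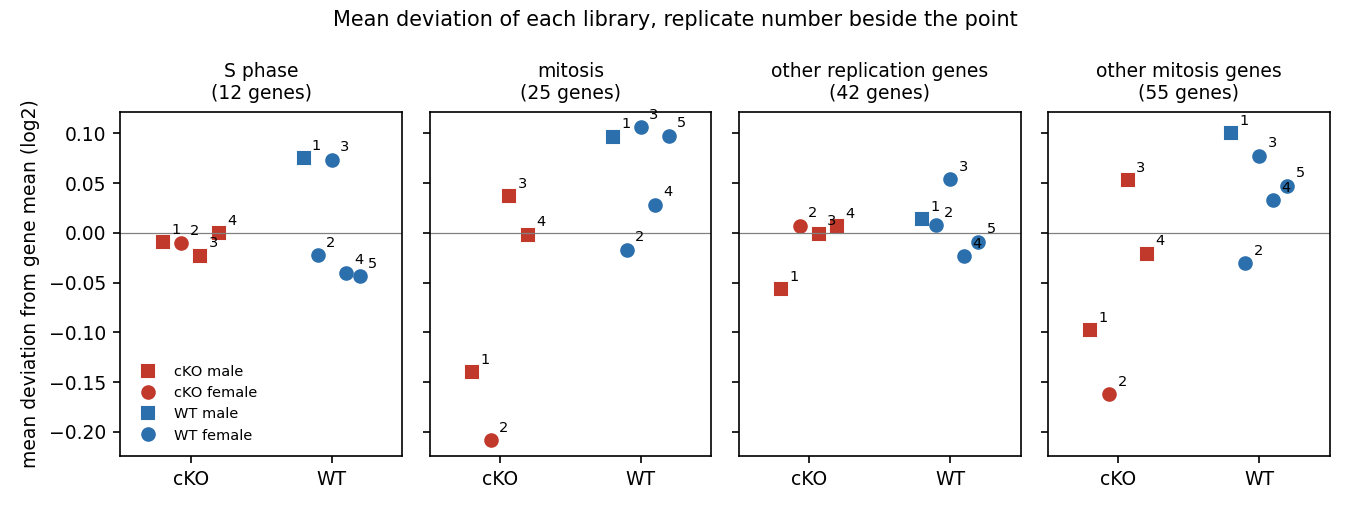
Mean deviation (log2) of the 12 S phase and the 25 mitosis genes from their own means, a point per library, cKO left of WT, with males and females marked. For mitosis genes cKO replicates 1 and 2 lie at -0.14 and -0.21, and the other 7 libraries between -0.02 and 0.11.

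Leaving out cKO replicates 1 and 2 was an alternative chosen after seeing these values. With the sex term, its fold changes compare cKO replicates 3 and 4 with WT replicate 1, the only WT male. The mitosis median was -0.08 in place of -0.19, and 20 of 25 genes were below 0. Leaving out cKO replicate 2, the only cKO female, compares 3 cKO males with WT replicate 1, at a mitosis median of -0.15. These medians therefore cannot show what cKO replicates 1 and 2 alone contribute. Without cKO replicate 2 the log2 fold change was -0.17 for Cenpf, -0.16 for Tpx2, -0.21 for Nusap1 and -0.15 for Top2a, and without cKO replicates 1 and 2 it was -0.09 for Aurkb. Rrm2 stood at -0.31 without cKO replicate 2 and at -0.10 without WT replicate 1. Without the sex term Cdk1 stood at -0.08, Mcm2 at -0.02, Mcm3 at -0.11, Mcm6 at 0.01, Rrm2 at -0.13 and Nusap1 at -0.18. Leaving out WT replicate 1, the only WT male, compares cKO replicate 2 alone with the WT females. It gave a mitosis median of -0.29 and an S phase median of -0.02. The genotype difference within males alone had a mitosis median of -0.15 (3 cKO against 1 WT), and within females alone of -0.29 (1 cKO against 4 WT), with 0 of 37 genes called in either (limma), where limma called 0.0176% of all genes in males and 0.0646% in females.

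**Figure D4:**
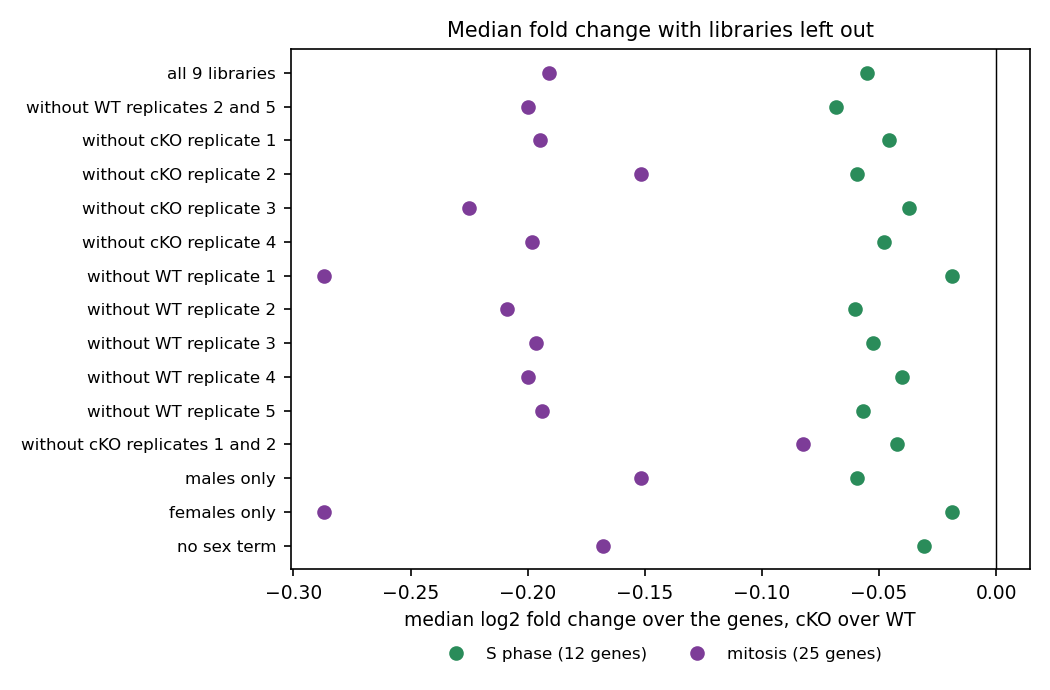
Median log2 fold change (cKO over WT) of the S phase genes and of the mitosis genes on the horizontal axis, with all 9 libraries, with libraries left out, within each sex and without the sex term, a row per setting. The mitosis median stays below 0 in every row and runs between -0.29 and -0.08. The S phase median runs between -0.06 and -0.02 when a single library is left out. The rows without cKO replicate 2 and within males make the same comparison, as do the rows without WT replicate 1 and within females.

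Sex itself was not associated with the genes at the adjusted threshold. With genotype as a term, 0 of 37 had an adjusted p under 0.05 for male over female in limma, where 0.0528% of all genes did, and the smallest adjusted p was 0.714. At an unadjusted p under 0.05 there were 5 of 37, against 6.73% of all genes. Plk1 (log2 difference 0.35), Kif23 (0.28), Nusap1 (0.26) and Mki67 (0.24) had higher values in males, which 3.53% of all genes did at that threshold, and Mcm6 (-0.15) had lower values in males. The genotype difference did not differ between the sexes past the threshold either, with 0 of 37 genes called for the interaction, where 0.00587% of all genes were. Bub1b had the smallest interaction p of the 37, with a log2 difference of -0.43 in males and 0.22 in females (limma adjusted p = 0.57), and was the 1 gene of 37 with an unadjusted p under 0.05, which 7.90% of all genes had. The interaction rests on 1 cKO female and 1 WT male, with a median standard error of 0.224 on the log2 scale.

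The rest of the cell cycle machinery was read from 5 further lists, in which 0 of 143 tested genes passed in limma with the sex term, edgeR or DESeq2. At an unadjusted p under 0.05 limma gave 22 of them, 4 higher and 18 lower in cKO, where 4.94% and 6.40% of all genes were. The 55 other mitosis genes had 43 log2 fold changes below 0 and a median of -0.12. The 42 other replication genes had 19 below 0 and a median of 0.005. Regulators of the step from G1 to S had 14 of 20 below 0 and a median of -0.07, the pocket proteins and CDK inhibitors 5 of 9 and -0.07, and the p53 targets and DNA damage genes 10 of 18 and -0.03. Cdkn2a, with a mean of 2.89 normalized counts, was under the minimum and was not tested.

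Ccnd2, the D-type cyclin used by dividing hippocampal progenitors, had the smallest p of these lists, with 6712, 6686, 6691 and 7321 normalized counts in cKO, against 7433, 8149, 7645, 7764 and 7911 in WT. The groups did not overlap. Its log2 fold change was -0.17 ± 0.047 (SE, adjusted p = 0.175 in limma, and 0.0344 in limma without the sex term). Ccnd1, the related cyclin D1, had 1269.8, 1189, 1177 and 1268 normalized counts in cKO, against 1353, 1347, 1358, 1367 and 1384 in WT, also without overlap (log2 fold change -0.16, limma adjusted p = 0.223). Of the other genes with the smallest p in their list, Cdkn1a, the p21 inhibitor, stood at -0.20 and Rb1 at -0.09, the clamp loader subunit Rfc3 at 0.28 and the polymerase subunit Pole2 at -0.59. Knl1, a kinetochore scaffold, stood at -0.64, Cdca2 at -0.62, and the p53 targets Zmat3 and Sesn2 at -0.22 and 0.18. The smallest adjusted p of these 8 genes was 0.24 in limma, for Zmat3.

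Markers of the cell types that could hold dividing cells were read beside these values. The 10 markers of oligodendrocyte precursors were all below 0 in log2 fold change, with a median of -0.11, and their summed level was 44260 to 46552 normalized counts in cKO and 48560 to 53523 in WT, without overlap. Of these 10 markers, limma with the sex term and edgeR called 0, DESeq2 called 3 and limma without the sex term 1. An unadjusted p under 0.05 in limma was reached by 3 of them, where 11.3% of all genes reached it. In cKO replicates 1 and 2 the summed level of these markers was 45316 and 44260. The 12 markers of neural stem and progenitor cells had 7 below 0, with a sum of 16048 to 17275 in cKO and 15904 to 17658 in WT, and the 9 of immature dentate neurons 7 below 0, with 54112 to 56764 in cKO and 56110 to 61584 in WT. Endothelial markers were below 0 in 7 of 11. They summed to 8067 to 8940 in cKO and 9055 to 10108 in WT, also without overlap. Of these 11, 1 was called lower by limma with the sex term, 1 by edgeR, 2 by DESeq2 and 2 by limma without the sex term. An unadjusted p under 0.05 in limma was reached by 3 of the 11, against 11.3% of all genes. Microglia markers were below 0 in 8 of 9. Their sum was 8909 to 9978 in cKO and 10168 to 10758 in WT, again without overlap. Of these 9, limma with the sex term and edgeR called 0, DESeq2 called 1 and limma without the sex term 2. An unadjusted p under 0.05 in limma was reached by 3, against 11.3% of all genes. At that threshold 1 of the 12 stem and progenitor markers was higher in cKO and 2 were lower. The 9 markers of immature dentate neurons also had 1 higher and 2 lower. The median log2 fold change was -0.06 for the stem and progenitor list, -0.04 for immature dentate neurons, -0.08 for endothelial cells and -0.10 for microglia. In cKO replicates 1 and 2 the sums were 16048 and 17275 for the stem and progenitor list and 54112 and 56764 for immature dentate neurons. They were 8067 and 8682 for endothelial cells and 8909 and 9978 for microglia. No marker of these lists was at 0. The part of these cell types in the values of the mitosis genes was not tested.

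Markers of neighbouring tissue and of other cells varied between libraries. The 9 markers of meningeal fibroblasts were all above 0, with 0 called by limma, edgeR or DESeq2 and 5 with an unadjusted p under 0.05 in limma, and summed to 8057 to 9825 in cKO and 5632 to 9477 in WT. Choroid plexus markers ran between 587 and 33129 in cKO and between 621 and 43785 in WT. The summed astrocyte markers ran between 155020 and 164441 in cKO and between 154193 and 169841 in WT, with 2 of 9 called higher and 1 lower by limma, 3 called by edgeR and 4 by DESeq2, and those of myelin oligodendrocytes between 21797 and 33471 in cKO and between 21449 and 31994 in WT. Mural cell markers summed to 10651 to 11996 in cKO and 11950 to 13713 in WT. Limma with the sex term called 0 of these 8 and DESeq2 1. At an unadjusted p under 0.05 limma gave 3 higher and 2 lower in cKO. Over all genes 11.3% had an unadjusted p under 0.05 in limma. Ependymal markers summed to 555 to 968 in cKO and 567 to 1122 in WT, and blood cell markers to 1826 to 2505 in cKO and 2158 to 3492 in WT. Markers of neurons of the striatum came to 1508 to 2767 in cKO and 1485 to 2904 in WT, and of the thalamus to 4145 to 4608 in cKO and 4083 to 4839 in WT. Median log2 fold changes were 0.36 for meningeal fibroblasts, 0.30 for choroid plexus, 0.05 for astrocytes, 0.18 for myelin oligodendrocytes, 0.002 for mural cells, 0.09 for ependymal cells, -0.17 for blood cells, 0.18 for the striatum and -0.05 for the thalamus. Their part in the values of the proliferation genes was not tested.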

How the data were processed

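RNA was sequenced from 9 hippocampi, 4 cKO and 5 WT, in directional libraries prepared together, per the labels' protocols. The submitters' processing notes name GRCm39, STAR 2.7.10b, cutadapt 4.4, FastQC 0.12.1 and DESeq2 1.41.8. How reads were counted, with which annotation and strand setting, was not stated, so overlapping genes may share reads. The deposited signal is a gene count that was divided by a size factor of its library, as its steps show, and it does not compare genes of unequal length. Each library's step was between 0.943 and 1.08, and 100% of values above 0 came to within 0.1 of a whole read after division by it. The check says little at low values for cKO replicate 1 and WT replicates 1 and 4, whose steps are nearly 1.

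The 17036 genes averaging 10 or more were fitted by limma-trend (limma 3.58.1, R 4.3.3) on log2(normalized count + 1), with terms for sex and genotype. P-values were adjusted by Benjamini-Hochberg over all of them, with a threshold of 0.05. Fold changes on this scale are understated for low genes, and the sex term can set them apart from the plain ratio of means. The sex difference is from the same fit, and the interaction from its own. Alternatives were DESeq2 1.42.0 and edgeR 4.0.16 on the recovered reads, fits of males alone, of females alone and without a term for sex, robust limma, scaling by TMM, a minimum mean of 50 or none, pseudocounts of 0.5 and 5, and libraries left out. The tests were also run on simulated counts with known fold changes. These had the same setting for the spread between libraries in every gene and no sex difference. They therefore cannot show how the tests behave with the spread and the uneven sexes of these libraries. Exon lengths were from GENCODE M21 and promoters from RefSeq, both on GRCm38, and gene coordinates from the deposited table. Tables and figures were made in Python 3.11.15 (pandas 2.3.3, numpy 2.4.6, matplotlib 3.10.9).

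The genes and lists were chosen with earlier results of these data known. The naming rule gave values in every library for Mki67, Top2a, Cdk1, Pcna, Mcm2, the 3 genes of smallest p in each phase and those with the highest and lowest fold change, fold changes for all other members, and the 2 genes of smallest p in each further list. The lists were 5 of the cell cycle and 15 of cell type markers, and 3 of their genes, Cdkn2a, Cd3e and Gbx2, were under the minimum. Chi-square per gene between libraries of the same genotype was 3.60 to 12.9, more than counting alone gives. Litters are not in the labels, and p-values measure only the spread between these samples.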

Additional observations from a re-analysis of the deposited data

Results flagged for a closer look

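In each genotype, for each of the 37 genes, the mean deviation of both phases and the 11 other genes with values per library in the tables (the knockout check and the 10 named from the further lists), the highest and the lowest library were compared with the others by Dixon's criterion. 4 of 100 groups stood out, and chance flags about 1 in 20 groups. Mcm2 was high in cKO replicate 4, at 367 normalized counts, where the other 3 cKO libraries had 316 to 322. Mki67 was low in WT replicate 2, at 598 normalized counts, where the other WT libraries had 719 to 762. Ccnd2 was high in cKO replicate 4, at 7321 normalized counts, and Cdca2 was high in cKO replicate 3, at 79.3 normalized counts, where the other cKO libraries had 50.7 to 54.8.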

How the results depend on the processing

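0 of 37 genes passed for genotype under all 22 alternatives, and the mitosis median stayed below 0 in them. 3 genes had groups that do not overlap with all libraries, 23 in males only and 26 in females only. The count was 5 without WT replicates 2 and 5, and 5 without cKO replicates 1 and 2. It was 3 to 6 with a single library left out. Fewer libraries separate more easily, and males only and females only each leave 1 library in a group. Over all genes, the share without overlap was counted with all libraries only, at 6.29%. The counts of 23 and 26 therefore cannot show a separation by genotype. In the further cell cycle lists 1 gene (Ccnd2) passed without the sex term, where 0 did with it. The fold change of Pcna was above 0 at 0.0172 in males only and without cKO replicate 2, and 0.0194 without cKO replicates 1 and 2 (log2), with a range of -0.14 to 0.0172 when a single library was left out; the cause was not tested. Of 505 values of single genes under an alternative, 501 kept their direction and their side of the threshold. The interaction could not be fitted without cKO replicate 2 or WT replicate 1. No paired analysis was possible because the replicate numbers were given in accession order and tie no animals together. Males alone and females alone each leave 1 library in a group, which is assumed to vary like the others. With the sex term, leaving out cKO replicate 2 or WT replicate 1 gives the same fold changes as males alone or females alone. Leaving out cKO replicates 1 and 2 also rests on WT replicate 1, so the 22 alternatives are not all separate checks. Genes with few counts carry the larger counting error, and Gins2 had the lowest mean.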
